A study of Ogataea parapolymorpha with 8 samples.

Results

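Cultures of a yeast mutant labelled as lacking genes of mitochondrial routes for NADH oxidation were compared with wild-type cultures labelled micro-aerobic. This was done gene by gene across the transcriptome. The yeast is Ogataea parapolymorpha, a methylotroph that tolerates heat. The comparison holds 4 of the 8 libraries of the series, 2 in each group, picked by their labels with every gene included. The mutant, strain IMX2167 with the genotype gut2Δ ndi/ndeΔ, was grown aerobically in a chemostat at pH 5, fed SM medium with 7.5 g/L glucose and diluted at 0.1 per h. The wild type, strain CBS11895, was grown at the same dilution rate in a chemostat labelled micro-aerobic, fed SM urea medium with 20 g/L glucose at pH 6. Tween 80 (an ester of oleic acid, 420 mg/L), ergosterol (10 mg/L) and pluronic acid, an antifoam, are named for the wild type only. Genotype, strain, oxygen supply, pH, glucose, medium and named additives all differ between the labels of the groups and cannot be told apart. The mutant label names no nitrogen source. The series also holds a wild-type chemostat labelled aerobic and an aerobic batch of the mutant. That chemostat was fed less glucose (7.5 g/L) and less Tween 80 (84 mg/L) than the one labelled micro-aerobic. Its urea medium, pH, dilution rate, ergosterol and antifoam were the same. The batch shared medium and glucose with the mutant chemostat but was at pH 6, so culture mode and pH differ together.

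Most yeasts reoxidise NADH at the inner mitochondrial membrane, either through the proton-pumping complex I or through single-subunit type II NADH dehydrogenases, which pump no protons. External type II enzymes take NADH from the cytosol, and GUT2, a glycerol-3-phosphate dehydrogenase of the same membrane, takes its electrons by way of glycerol 3-phosphate. Ogataea species keep complex I, which Saccharomyces cerevisiae lacks. Gene roles given below are those known from Saccharomyces cerevisiae unless another source is named, and each symbol stands for the Saccharomyces cerevisiae homolog given in the deposited files or, failing that, is the gene name in the deposited annotation.

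The oxygen label went against the level of genes that mark oxygen limitation in Saccharomyces cerevisiae. Of 11 such genes tested, 10 were lower and 1 was higher in the libraries labelled micro-aerobic than in the wild-type libraries labelled aerobic, against 22.3% of all genes tested that were lower in that contrast. ERG25, a sterol oxidase that needs oxygen, averaged 15.0 CPM (counts scaled to a common library size) in the libraries labelled micro-aerobic and 3631 CPM in those labelled aerobic. It stood at 17.1 and 18.4 CPM in the mutant chemostat. Its change between the wild-type groups (-7.92 on the log2 scale) was the largest of the falls, and that of ERG25_1, annotated with the same product, the smallest (-0.33). AAC3 was the gene that was higher (2.03). The wild-type groups also differ in glucose and Tween 80, so this contrast is not one of oxygen label alone. Between the 2 cultures of the aerobic mutant chemostat and the libraries labelled micro-aerobic, 8 of the 11 genes did not pass the test. The share called, 27.3%, was near the 27.1% of all genes, so it is not read as a trait of these genes. A gene that did not pass was not thereby shown to be equal in the groups. HEM13, a heme synthesis oxidase, rose by 0.56 ± 0.13 on the log2 scale and ERG1, a squalene oxidase, by 0.82 ± 0.16, while the desaturase gene OLE1 fell by 1.11 ± 0.14. The HEM13 and ERG1 calls were lost without wild-type library 2 (adjusted p = 0.15 and 0.081, edgeR). The wild-type group is therefore named by its label throughout. Its glucose, Tween 80 and oxygen supply rest on that same label, and so does what every wild-type value stands for; whether labels of the wild-type groups were exchanged was not tested.

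The mutant chemostat libraries held 9549284 and 10087942 counts in genes and the wild-type libraries 6190556 and 6319424. The chi-square between replicates, per degree of freedom, was 38.3 in the mutant chemostat and 6.75 in the wild type, both above sampling noise. The labels and the series text call them biological replicates without saying more, so that p-values reflect only how far these samples spread, which may be technical. Levels are CPM of library sizes scaled by TMM, changes are log2 ratios of mutant chemostat over wild type labelled micro-aerobic ± SE, and a gene was called where its Benjamini-Hochberg adjusted p, from the quasi-likelihood test of edgeR, was below 0.05. "Rose" and "fell" are used of called genes. In RNA of a whole culture, fewer cells with a transcript and less of it per cell cannot be told apart. By root mean square log2 distance over genes, the mutant chemostat lay 0.568 from the wild type labelled micro-aerobic, 0.966 from the mutant batch and 1.199 from the wild type labelled aerobic, and 60.7% of genes tested were called against that last group.

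The level of the deleted genes was looked at in every library. GUT2 (OPAR_001648, chromosome 3, 740390 to 742327, plus strand, 1 exon) stood at 29.8 and 27.3 CPM in the mutant chemostat, against 357 and 340 CPM in the wild type labelled micro-aerobic. It stood at 111 and 94.8 CPM in the mutant batch and at 393 and 381 CPM in the wild type labelled aerobic. Every mutant library was thus below every wild-type library, and the fall in the mutant chemostat was 3.61 ± 0.15 (edgeR, adjusted p = 1.38e-09). Between 303 and 309 counts per mutant chemostat library still fell in the GUT2 gene model, and whether they come from outside the deleted part was not tested.

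NDE1 (OPAR_004935, chromosome 7, 732835 to 734477, plus strand, 1 exon), an external type II NADH dehydrogenase, held 5 and 6 counts in the mutant chemostat, against 362 and 311 in the wild type. Scaled for depth, the wild type had 105 times the level of the mutant (95% exact interval 58.2 to 211, counting error only). The mutant batch stood at 5.34 and 4.55 CPM and the wild type labelled aerobic at 66.4 and 72.1 CPM, so the groups of each genotype did not overlap. OPAR_001303, an unnamed gene with the same pair of oxidoreductase domains as NDE1, stood at 24.9 and 18.0 CPM in the mutant chemostat and at 624 and 630 CPM in the wild type, a fall of 4.87 ± 0.18 (edgeR, adjusted p = 7.02e-10). In the other groups it stood at 31.7 and 31.1 CPM (mutant batch) and 135 and 118 CPM (wild type labelled aerobic), so both mutant groups lay below both wild-type groups here too. Another gene of this domain pair, OPAR_000205, was higher in the mutant chemostat (167 and 211 CPM) than in the wild type (84.2 and 89.3 CPM). OPAR_001939 (-0.22 ± 0.18) and OPAR_000984 (0.05 ± 0.15), the other genes with exactly these domains, were not called. The labels do not say which of these genes "ndi/nde" covers.

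The gene next to GUT2 moved the other way. PCD1 (OPAR_001649, chromosome 3, 742345 to 743621, minus strand), a peroxisomal hydrolase of coenzyme A and its derivatives, lies directly beyond the GUT2 gene model and faces it. It stood at 1765 and 1711 CPM in the mutant chemostat, against 79.6 and 91.2 CPM in the wild type. This rise of 4.35 ± 0.17 (edgeR, adjusted p = 1.38e-09) was the largest among genes with a symbol and at least 10 CPM in a group. The mutant batch, which carries the same genotype, averaged 87.4 CPM and the wild type labelled aerobic 68.1 CPM, so the mutant chemostat was the high group of the 4. The next gene, OPAR_001650 with a universal stress protein domain, rose by 1.43 ± 0.17, and UBP11, a deubiquitinase gene on the other side of GUT2, fell by 1.28 ± 0.15. RRP4, an exosome subunit gene that lies between UBP11 and GUT2, was not called (-0.02 ± 0.13).

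**Figure D1:**
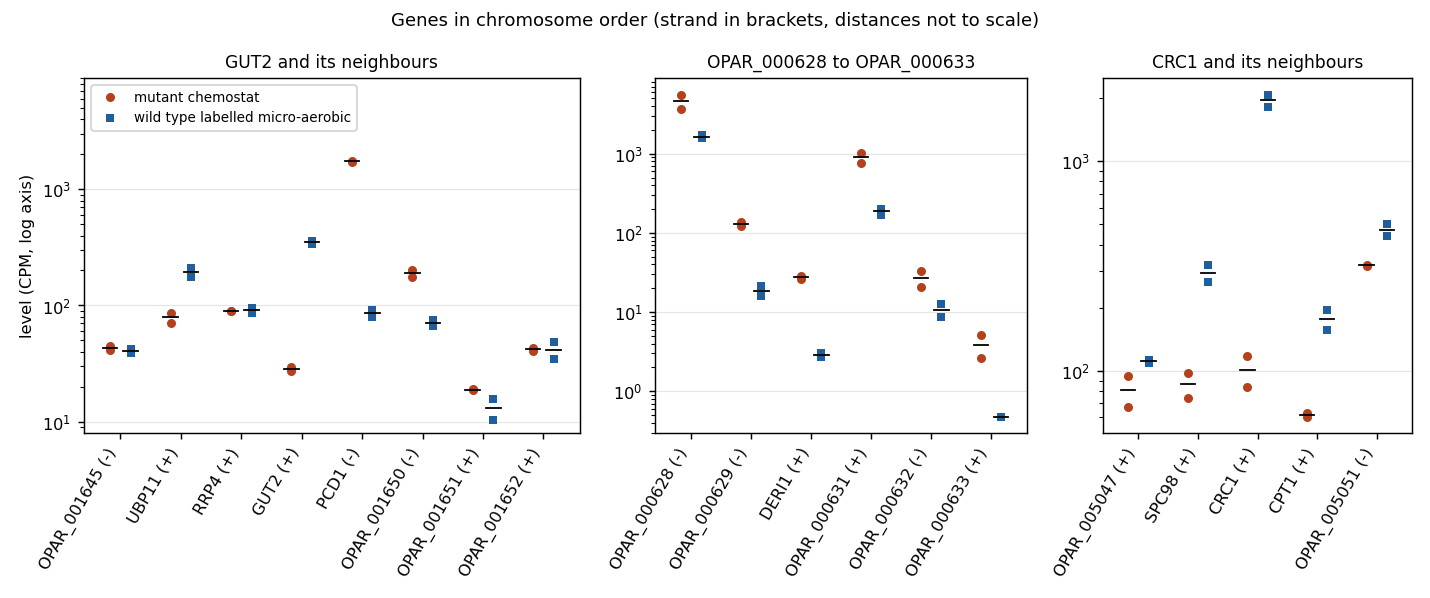
Levels (CPM, log axis) of genes in chromosome order around GUT2, in the run OPAR_000628 to OPAR_000633 and around CRC1, with one point per library and bars at group means, mutant chemostat left of wild type labelled micro-aerobic. PCD1 stands at 1765 and 1711 CPM in the mutant chemostat beside GUT2 at 29.8 and 27.3 CPM, the 6 genes of the middle run are higher in the mutant chemostat, and CRC1 and its neighbours SPC98 and CPT1 are lower.

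Of 5265 genes tested, 1425 (27.1%) were called, of which 722 (13.7%) rose and 703 (13.4%) fell. By at least 2-fold, 164 genes (3.11%) rose and 100 (1.9%) fell, and 507 of the called genes changed by less than 1.5-fold. The libraries of the groups did not overlap for any called gene. The median change over all genes was 0.01, but under upper quartile scaling it was 0.09 and the split became 943 rises and 492 falls. The number of calls was 440 without mutant chemostat library 1, 670 without wild-type library 1 and 280 without wild-type library 2, against 2105 without mutant chemostat library 2. No called gene changed sign under any of the alternatives tried. In the authors' deposited table of this contrast 1943 of 5263 shared genes have an adjusted p below 0.05, and 1422 genes were called in both with the same direction. That table names no groups and was matched to this contrast by its changes, so the shared direction was fixed by the match.

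**Figure D2:**
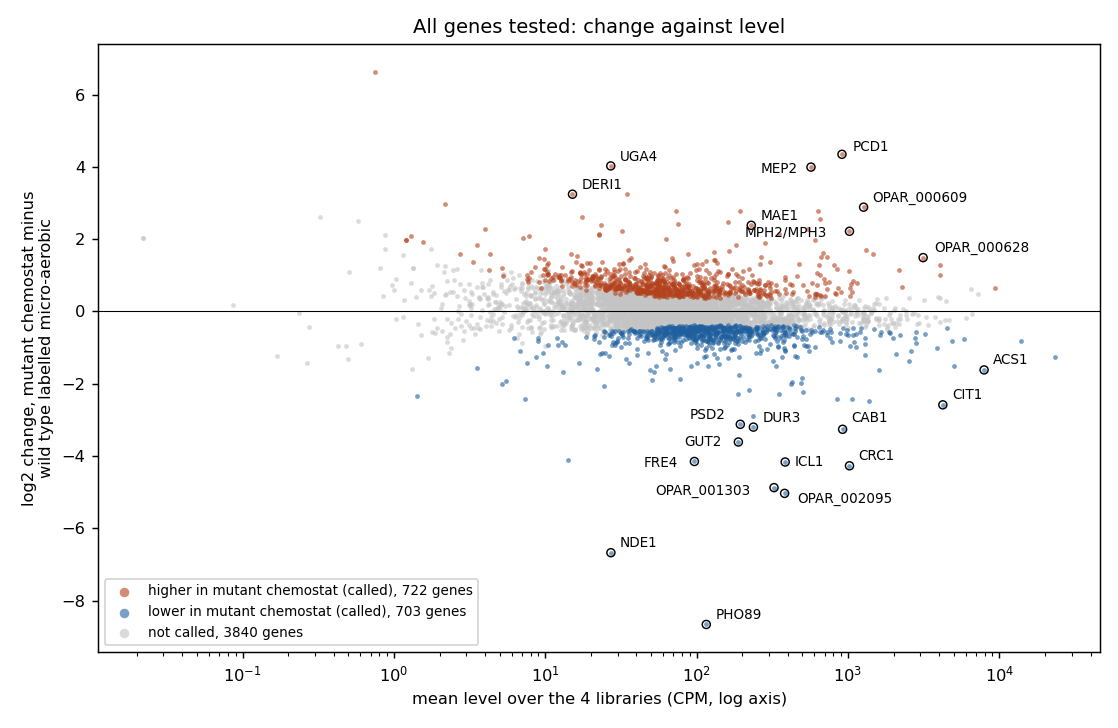
Change (log2, mutant chemostat minus wild type labelled micro-aerobic) against mean level over the 4 libraries (CPM, log axis) for all 5265 genes tested, with named genes ringed. The 722 genes called higher and 703 called lower surround 3840 that were not called, and PHO89 and NDE1 lie lowest.

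Nitrogen transport and use held some of the largest changes in both directions. Of 26 tested genes of this group, 9 rose and 5 fell, against 13.7% and 13.4% of all genes, with a median change of 0.20. MEP2, a high-affinity ammonium permease, stood at 1061 and 1080 CPM in the mutant chemostat, against 58.4 and 76.0 CPM in the wild type labelled micro-aerobic (3.99 ± 0.17; edgeR, adjusted p = 1.42e-09). The mutant batch averaged 2597 CPM and the wild type labelled aerobic, also on urea, 1097 CPM, so the wild type labelled micro-aerobic was the low group of the 4. The low-affinity ammonium permease gene MEP3 stood at 234 and 159 CPM in the mutant chemostat and 62.9 and 63.1 CPM in the wild type (1.64 ± 0.17).

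The urea genes ran the other way. DUR3, the urea transporter gene, stood at 42.5 and 50.6 CPM in the mutant chemostat, against 407 and 448 CPM in the wild type on urea, a fall of 3.20 ± 0.16 (edgeR, adjusted p = 8.17e-09). DUR1/2, urea amidolyase, which splits urea to ammonia and carbon dioxide, stood at 92.7 and 68.8 CPM in the mutant chemostat and 407 and 320 CPM in the wild type (-2.17 ± 0.18). Both genes separated the groups without overlap, as did every called gene. DUR3 averaged 1194 CPM in the wild type labelled aerobic, whose medium also held urea, and 30.3 CPM in the mutant batch. DUR3 lies in a run of 4 neighbouring genes (OPAR_002759 to OPAR_002762) that were all lower by at least 2-fold. They include OPAR_002759, with a zinc finger and a fungal transcription factor domain (-1.41 ± 0.18), and OPAR_002762, with a proline racemase domain, whose call was lost without mutant chemostat library 1, mutant chemostat library 2 and wild-type library 1 (adjusted p = 0.051, 0.059 and 0.21, edgeR). OPAR_002095, with a formamidase and acetamidase domain, stood at 25.8 and 19.5 CPM in the mutant chemostat and 772 and 706 CPM in the wild type, a fall of 5.03 ± 0.19 that was among the largest of all genes.

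Several genes for other nitrogen compounds and for glutamate also changed. UGA4, a permease for 4-aminobutyrate, stood at 60.3 and 41.7 CPM in the mutant chemostat, against 2.07 and 4.15 CPM in the wild type (4.03 ± 0.30). DAL4, an allantoin permease, rose by 2.01 ± 0.15 and DAL3, which releases urea in allantoin breakdown, by 1.098 ± 0.22. GLT1, the NADH-dependent glutamate synthase, stood at 1190 and 880 CPM in the mutant chemostat and 372 and 299 CPM in the wild type (1.62 ± 0.17). GDH2, the NAD-dependent glutamate dehydrogenase, stood at 1280 and 1059 CPM in the mutant chemostat and 562 and 473 CPM in the wild type (1.18 ± 0.15). The NADPH-dependent enzyme GDH1 fell by 0.57 ± 0.15, a call lost without mutant chemostat library 2, wild-type library 1 and wild-type library 2 (adjusted p = 0.052, 0.11 and 0.090, edgeR). PUT2, the second enzyme of proline breakdown, rose by 1.31 ± 0.18, though its gene overlaps another, and the proline permease gene PUT4 fell by 0.70 ± 0.14. Of the 5 falls in the list, 3 were called without either wild-type library.

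**Figure D3:**
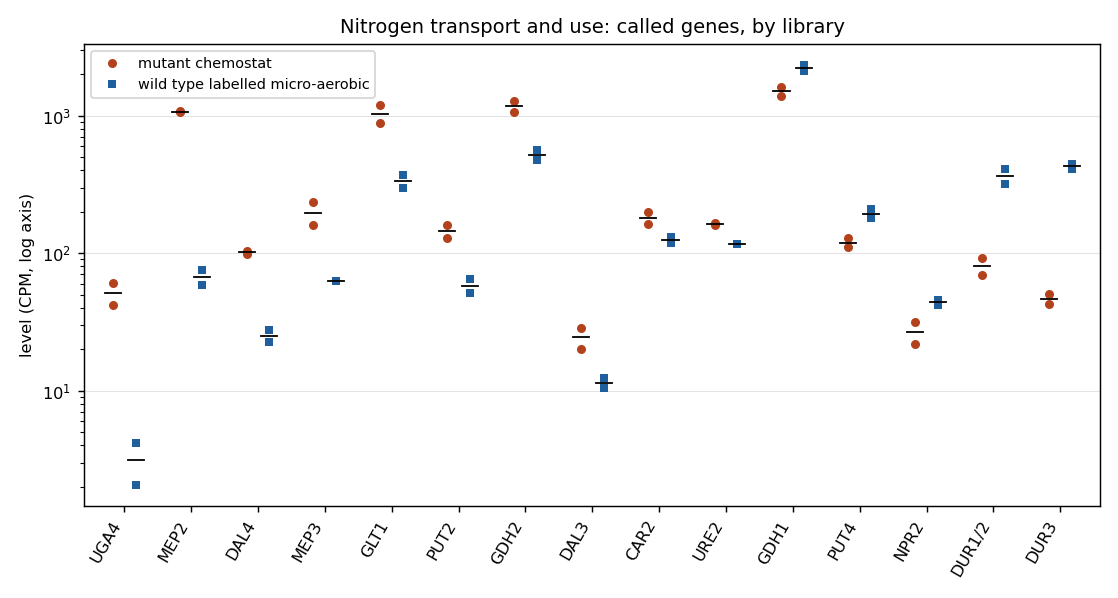
Levels (CPM, log axis) of UGA4 and the called genes of nitrogen transport and use, with one point per library and bars at group means, mutant chemostat left of wild type labelled micro-aerobic, ordered by change. MEP2 stands at 1061 and 1080 CPM in the mutant chemostat and 58.4 and 76.0 CPM in the wild type at one end, and DUR3 at 42.5 and 50.6 CPM in the mutant chemostat and 407 and 448 CPM in the wild type at the other.

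Fatty acid oxidation and carnitine transfer split by step. Of 14 tested genes, 7 rose, 5 fell and 2 were not called, with a median change of 0.39. This is a share called of 85.7%, against 27.1% of all genes. The enzymes of the peroxisomal beta-oxidation cycle rose together. POX1, the acyl-CoA oxidase of its first step, stood at 1163 and 975 CPM in the mutant chemostat and 403 and 347 CPM in the wild type labelled micro-aerobic (1.51 ± 0.15; edgeR, adjusted p = 8.47e-06). FOX2, the multifunctional enzyme of the middle steps, stood at 745 and 599 CPM in the mutant chemostat and 293 and 248 CPM in the wild type (1.31 ± 0.15). POT1, the thiolase of the last step, stood at 517 and 371 CPM in the mutant chemostat and 136 and 101 CPM in the wild type (1.90 ± 0.18). ECI1 and SPS19, which prepare unsaturated fatty acids for the cycle, rose by 1.603 ± 0.20 and 1.17 ± 0.14. These 5 genes were called under every alternative. Their lowest mutant chemostat library lay above the highest wild-type library, as for every gene called higher. The other rises were of PXA1 (0.45 ± 0.14) and PXA2 (0.52 ± 0.16), whose products form the transporter that brings fatty acids into the peroxisome. Both calls were lost without mutant chemostat library 2, wild-type library 1 and wild-type library 2 (adjusted p between 0.055 and 0.21, edgeR), that of PXA2 also without mutant chemostat library 1 (adjusted p = 0.098, edgeR) and that of PXA1 with the 4 libraries alone (adjusted p = 0.060, edgeR).

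Among the carnitine genes CRC1, YAT1 and CAT2 fell and YAT2 was not called. CRC1, the mitochondrial carnitine carrier gene, stood at 83.7 and 118 CPM in the mutant chemostat, against 1812 and 2075 CPM in the wild type labelled micro-aerobic, a fall of 4.27 ± 0.18 (edgeR, adjusted p = 1.83e-09). The mutant batch averaged 30.3 CPM and the wild type labelled aerobic 45.9 CPM, so the libraries labelled micro-aerobic were the high group of the 4. YAT1, a carnitine acetyltransferase gene, stood at 983 and 581 CPM in the mutant chemostat and 2373 and 2422 CPM in the wild type (-1.62 ± 0.20), and CAT2, another, at 781 and 621 CPM in the mutant chemostat and 1327 and 1401 CPM in the wild type (-0.96 ± 0.16). YAT2 is the remaining acetyltransferase gene (0.33 ± 0.18). The genes on either side of CRC1 on the same strand, SPC98 (-1.76 ± 0.16), of the gamma-tubulin complex, and CPT1 (-1.51 ± 0.15), of phospholipid synthesis, fell as well. FAA1, an acyl-CoA synthetase gene that overlaps another, and CTA1, the peroxisomal catalase gene, fell by 0.55 and 0.46, and both calls were lost without mutant chemostat library 1, wild-type library 1 and wild-type library 2 (adjusted p between 0.056 and 0.21, edgeR). Without any one of the same libraries, 3 of the 5 falls were called. Of 14 tested peroxins, which build the peroxisome, none rose and 1, PEX6, fell (-0.49 ± 0.14), a call lost without mutant chemostat library 1, wild-type library 1 and wild-type library 2 (adjusted p between 0.10 and 0.17, edgeR) and under upper quartile scaling (adjusted p = 0.053, edgeR).

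Genes of acetate and ethanol use fell more often than they rose in the mutant chemostat. Of 9 genes of ethanol, acetate and pyruvate bypass enzymes, 2 rose, 6 fell and 1 was not called, with a median change of -0.58. This is a share called of 88.9%, against 27.1% of all genes. ACS1, an acetyl-CoA synthetase, stood at 3641 and 4159 CPM in the mutant chemostat, against 11387 and 12510 CPM in the wild type labelled micro-aerobic (-1.62 ± 0.15; edgeR, adjusted p = 5.88e-06). ACS2, the other synthetase, stood at 118 and 119 CPM in the mutant chemostat and 592 and 568 CPM in the wild type (-2.29 ± 0.15). The mutant batch averaged 563 CPM and the wild type labelled aerobic 554 CPM of ACS2, so the mutant chemostat was the low group. ADH2, an alcohol dehydrogenase, fell by 1.26 ± 0.17 and ALD4, the mitochondrial acetaldehyde dehydrogenase, by 0.77 ± 0.16. ADY2, an acetate transporter gene, stood at 2608 and 2630 CPM in the mutant chemostat and 7624 and 7296 CPM in the wild type (-1.51 ± 0.15). OPAR_003553, with the same transporter domain on another chromosome, and OPAR_003554 next to it fell by 2.48 ± 0.14 and 2.41 ± 0.16. The falls of ADH3, a mitochondrial alcohol dehydrogenase (-0.53 ± 0.14), and ACH1, an acetyl-CoA hydrolase (-0.58 ± 0.13), were lost without wild-type library 1 (adjusted p = 0.13 and 0.052, edgeR) and without wild-type library 2 (adjusted p = 0.072 and 0.061, edgeR), which left 4 falls. The 2 rises, of the aldehyde dehydrogenase gene ALD2 (0.80) and the pyruvate decarboxylase gene PDC5 (0.64), were lost without wild-type library 2 (adjusted p = 0.079 and 0.15, edgeR), and that of PDC5 also without mutant chemostat library 1 and wild-type library 1 (adjusted p = 0.24 and 0.12, edgeR).

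Both enzymes of the glyoxylate cycle's bypass, which turns acetyl units into dicarboxylic acids, fell at the transcript level. ICL1, isocitrate lyase, stood at 40.1 and 41.1 CPM in the mutant chemostat, against 673 and 783 CPM in the wild type labelled micro-aerobic, a fall of 4.16 ± 0.21 (edgeR, adjusted p = 8.79e-09). MLS1, malate synthase, which acts next, stood at 203 and 191 CPM in the mutant chemostat and 737 and 816 CPM in the wild type (-1.98 ± 0.13). In the mutant batch and the wild type labelled aerobic ICL1 averaged 2.74 and 2.29 CPM, so the mutant chemostat lay between those groups and the libraries labelled micro-aerobic. PCK1, the first committed enzyme of gluconeogenesis, rose instead, to 1313 and 971 CPM in the mutant chemostat against 516 and 428 CPM in the wild type (1.28 ± 0.17). FBP1 and IDP2 were not called.

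In the citrate cycle and pyruvate dehydrogenase 17 of 19 genes were not called, none rose and 2 fell. This is a share called of 10.5%, against 27.1% of all genes. CIT1, citrate synthase, stood apart from the other members: it stood at 1319 and 1103 CPM in the mutant chemostat and 7021 and 7476 CPM in the wild type (-2.58 ± 0.15; edgeR, adjusted p = 3.55e-08), while the remaining 18 lay between -0.60 and 0.20. The fall of IDH1, an isocitrate dehydrogenase subunit gene, was lost without mutant chemostat library 1 and without wild-type library 2 (adjusted p = 0.13 and 0.19, edgeR). MAE1, malic enzyme, which turns malate into pyruvate, stood at 383 and 387 CPM in the mutant chemostat and 78.3 and 69.2 CPM in the wild type (2.38 ± 0.14).

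**Figure D4:**
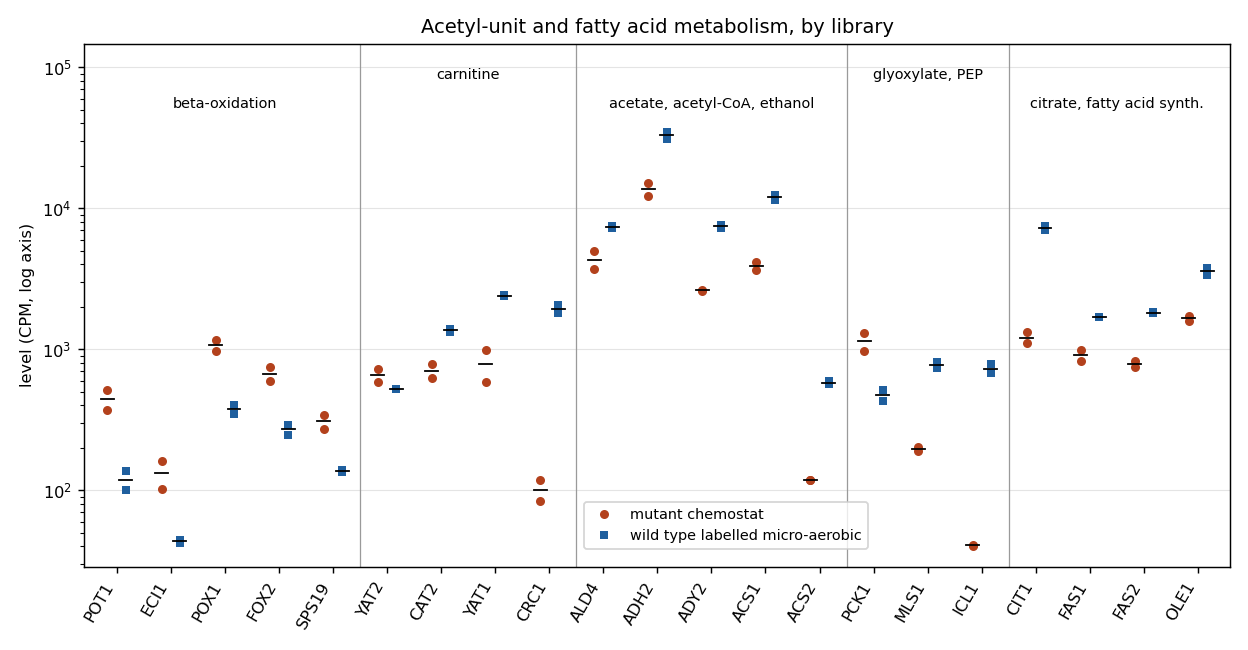
Levels (CPM, log axis) of genes of beta-oxidation, carnitine transfer, acetate and ethanol use, the glyoxylate cycle, citrate and fatty acid synthesis, with one point per library and bars at group means, mutant chemostat left of wild type labelled micro-aerobic. The 5 beta-oxidation genes are higher in the mutant chemostat, while CRC1 (83.7 and 118 CPM in the mutant chemostat, 1812 and 2075 CPM in the wild type), ICL1 and CIT1 are lower.

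Part of the genes of fatty acid synthesis fell. Of 8 tested genes of fatty acid synthesis and desaturation, none rose and 3 fell, and all 8 had negative changes. This is a share called of 37.5%, against 27.1% of all genes. FAS1 (-0.90 ± 0.14) and FAS2 (-1.200 ± 0.13) encode the subunits of fatty acid synthase, FAS2 overlapping another gene, and OLE1 (-1.11 ± 0.14) the desaturase that makes oleic acid. Without mutant chemostat library 2, 6 of the 8 were called lower. OPAR_003423, with the domain of fatty acid elongases, stood at 243 and 193 CPM in the mutant chemostat and 780 and 773 CPM in the wild type (-1.83 ± 0.14). Outside that list, CAB1, pantothenate kinase, the first enzyme of coenzyme A synthesis, stood at 150 and 198 CPM in the mutant chemostat and 1537 and 1797 CPM in the wild type (-3.26 ± 0.17; edgeR, adjusted p = 1.01e-08). Its neighbour PSD2, a phosphatidylserine decarboxylase, stood at 37.5 and 42.5 CPM in the mutant chemostat and 345 and 352 CPM in the wild type (-3.12 ± 0.17). BPL1, which attaches biotin to acetyl-CoA carboxylase and other carboxylases, stood at 270 and 264 CPM in the mutant chemostat and 1397 and 1462 CPM in the wild type (-2.42 ± 0.15), and its neighbour CRD1, cardiolipin synthase, fell by 1.22 ± 0.14. The groups did not overlap for any of these genes, as for every called gene.

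Of 13 tested genes of NADH shuttles and carriers, which pass reducing equivalents into the mitochondrion, none rose and 4 fell, the low NDE1 among them. The share called was 30.8%, against 27.1% of all genes, and the median change was -0.17. NDE1, looked at above as a deleted gene, is counted in that share, so the difference is not read as a trait of the list. Without mutant chemostat library 2, 3 of the 13 rose. AAT1, the mitochondrial aspartate aminotransferase of the malate-aspartate shuttle, stood at 172 and 180 CPM in the mutant chemostat and 727 and 631 CPM in the wild type (-1.95 ± 0.14), and averaged 1316 CPM in the mutant batch and 1394 CPM in the wild type labelled aerobic. SFC1, a succinate-fumarate carrier, fell by 1.23 ± 0.13. Of 15 genes assigned to complex I by protein domain, product name or gene ontology term, 6 rose and none fell, with a median of 0.32. Fewer rises were called without wild-type library 2, and a gene fell without mutant chemostat library 2. The rises called under every alternative were OPAR_004897 (0.87 ± 0.14) and OPAR_003305 (1.01 ± 0.19). Of the complex I genes 40% were called, against 27.1% of all genes. Among 6 genes of glycerol metabolism 3 rose and 2 fell, GUT2 among the falls, a share called of 83.3% against 27.1% of all genes. The glycerol kinase gene GUT1 (0.60 ± 0.13), GCY1 (0.74 ± 0.14) and the glycerol importer gene STL1 (0.83 ± 0.17) rose. The gene matching both GPD1 and GPD2, glycerol-3-phosphate dehydrogenase (NAD), fell by 0.61 ± 0.14 beside GUT2. Without wild-type library 2 the calls of GUT1, STL1 and GPD1/GPD2 were lost (adjusted p = 0.12, 0.052 and 0.0997, edgeR).

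Of 35 tested genes with the sugar transporter domain, 11 rose and 4 fell, against 13.7% and 13.4% of all genes, with a median of 0.38. Among 30 of them, without 5 whose name or homolog points to another substrate, 10 rose and 2 fell, with a median of 0.45. Those left out include ITR2, a myo-inositol transporter (-1.26 ± 0.15), and NAG3, annotated as a multidrug transporter (-1.22 ± 0.20), both called under every alternative. GIT1, a transporter of glycerophosphoinositol, was left out too (0.58 ± 0.14), and its call was lost without mutant chemostat library 1, wild-type library 1 and wild-type library 2 (adjusted p = 0.091, 0.065 and 0.13, edgeR). Over the 35 genes, 7 rises and 3 falls were called without any one of these libraries, and the median was 0.25 without wild-type library 2. OPAR_000609 stood at 2004 and 2459 CPM in the mutant chemostat, against 317 and 287 CPM in the wild type labelled micro-aerobic (2.89 ± 0.15; edgeR, adjusted p = 1.39e-08), and averaged 160 CPM in the mutant batch and 4.62 CPM in the wild type labelled aerobic. The gene closest to the maltose permeases MPH2/MPH3 stood at 1666 and 1699 CPM in the mutant chemostat and 283 and 440 CPM in the wild type (2.22 ± 0.19). Its neighbour IMA2, an alpha-glucosidase of isomaltose use, stood at 999 and 960 CPM in the mutant chemostat and 336 and 353 CPM in the wild type (1.51 ± 0.13). OPAR_004520, at the end of chromosome 7, fell by 2.02 ± 0.13. In glycolysis, 3 of 12 genes rose, 1 fell and 8 were not called, a share called of 33.3% against 27.1% of all genes. The fall was of TDH2, glyceraldehyde-3-phosphate dehydrogenase (-0.81 ± 0.16). PFK2, a phosphofructokinase subunit, was among the rises (1.03 ± 0.19). Both of these calls were lost without wild-type library 2. Of the 8 genes listed for the pentose phosphate route, 3 were called higher and 1 lower, and the median change was 0.28. This is a share called of 50%, against 27.1% of all genes. ZWF1 (0.48 ± 0.14) and GND1 (0.47 ± 0.13), the dehydrogenases that form NADPH, and RKI1 (0.81 ± 0.20), ribose-5-phosphate isomerase, rose, and these calls were lost without mutant chemostat library 1, wild-type library 1 and wild-type library 2 (adjusted p between 0.052 and 0.21, edgeR). OPAR_000195, one of the transaldolase genes, was the fall and stood at 149 and 203 CPM in the mutant chemostat and 795 and 854 CPM in the wild type (-2.22 ± 0.16).

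Genes that rose by at least 2-fold stood beside each other in 16 runs holding 40 of the 164, and 30 of the 100 that fell did so in 13 runs. Whether that is more than a random order of genes would give was not tested. The longest run, 6 genes, was OPAR_000628 to OPAR_000633 on chromosome 2 (29569 to 40274). OPAR_000628, with glycoside hydrolase domains, stood at 5592 and 3654 CPM in the mutant chemostat and 1712 and 1579 CPM in the wild type labelled micro-aerobic (1.49 ± 0.20), against means of 1.67 CPM in the mutant batch and 0 CPM in the wild type labelled aerobic. OPAR_000629, with dihydroxyacetone kinase domains, stood at 136 and 121 CPM in the mutant chemostat and 21.1 and 16.1 CPM in the wild type (2.78 ± 0.24). DERI1 (OPAR_000630), annotated as a D-erythrulose-4-phosphate isomerase, stood at 28.5 and 26.2 CPM in the mutant chemostat and 2.71 and 3.03 CPM in the wild type (3.24 ± 0.30). The first 4 genes of the run averaged at most 3.15 CPM in the mutant batch and in the wild type labelled aerobic. The sugar transporter gene OPAR_000631 rose by 2.27 ± 0.16. OPAR_000632, with a zinc cluster domain, and OPAR_000633, a short-chain dehydrogenase gene, rose by 1.33 ± 0.29 and 2.97 ± 0.68, and both calls were lost without mutant chemostat library 1 (adjusted p = 0.080 and 0.093, edgeR) and without wild-type library 2 (adjusted p = 0.11 and 0.095, edgeR), that of OPAR_000633 also without wild-type library 1 (adjusted p = 0.055, edgeR). On chromosome 1, OPAR_000156 to OPAR_000159 (261022 to 265922), 3 dehydrogenase genes, OPAR_000156 and OPAR_000157 overlapping another gene, and a sugar transporter gene, rose by 1.198 to 2.22. There the call of OPAR_000159 was lost without mutant chemostat library 1, wild-type library 1 and wild-type library 2 (adjusted p = 0.17, 0.16 and 0.14, edgeR) and with DESeq2 (adjusted p = 0.073).

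Transporters of phosphate, sodium and metals held single large changes. PHO89, a sodium-coupled phosphate transporter, held 12 counts over the mutant chemostat libraries and 2893 over those of the wild type. Scaled for depth, the wild type had 413 times the mutant level (95% exact interval 236 to 800, counting error only), and the wild type labelled aerobic averaged 1880 CPM and the mutant batch 3.31 CPM. Both mutant groups were low and both wild-type groups high. The other phosphate transporter of high affinity, PHO84, was not called (0.03), and PHO87, of low affinity, rose by 1.28 ± 0.19. NHA1 and ENA1, which export sodium, fell by 1.04 ± 0.13 and 1.01 ± 0.17. FRE4, a metal reductase of the plasma membrane, stood at 9.05 and 11.5 CPM in the mutant chemostat and 162 and 203 CPM in the wild type (-4.15 ± 0.23; edgeR, adjusted p = 2.44e-08), while FRE7, of the same family, rose by 1.28 ± 0.14 and SIT1, a siderophore transporter, fell by 1.27 ± 0.14. OPAR_001991, with peptidase domains, held 17 and 15 counts in the mutant chemostat and 0 in both wild-type libraries, and was at least 6.22-fold higher against a floor of 3 counts over the wild-type group.

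In the growth-related groups the counts of called genes changed with the library left out, while single genes were called under every alternative. The share called was 43.3% for the cell cycle and histones, 26.7% for amino acid synthesis, 37.5% for the proteasome and 45% for heat shock. Over all genes it was 27.1%. Of 30 tested genes of the cell cycle and histones, 13 rose and none fell, with a median of 0.41. The proliferating cell nuclear antigen gene POL30 (1.18 ± 0.17) and the histone variant gene HTZ1 (0.95 ± 0.15) were called under every alternative, as were, outside the list, the G1 cyclin gene PCL1 (1.31 ± 0.20), the cohesin gene MCD1 (1.31 ± 0.23), which overlaps another gene, and the primase gene PRI1 (1.24 ± 0.20). The rises numbered 4 without mutant chemostat library 1 and 2 without wild-type library 2. Of 60 genes of amino acid synthesis 1 rose and 15 fell, with 9 falls called without either wild-type library and 5 rises without mutant chemostat library 2. ARG1 (-1.16 ± 0.15) and ARG8 (-1.01 ± 0.14) of arginine synthesis, BAT2 (-1.14 ± 0.15) of branched-chain amino acids and THR4 (-1.08 ± 0.14) of threonine fell, as did GCN4, the activator of such genes (-1.01 ± 0.15). Of 32 proteasome genes 1 rose and 11 fell, with 4 falls called without mutant chemostat library 1 and 1 without wild-type library 2, and 7 rises without mutant chemostat library 2. Of 20 heat shock genes 8 fell, with 2 falls called without mutant chemostat library 1 and 0 without wild-type library 2, and 1 rose, HSP12 (1.59 ± 0.21), which encodes a membrane-stabilising stress protein. Of 77 cytosolic ribosomal protein genes 1 rose and 9 fell, a share called of 13% against 27.1% of all genes. The 9 falls numbered 2 without mutant chemostat library 1, 2 without wild-type library 1 and 0 without wild-type library 2, and the rises 4 without mutant chemostat library 2.

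**Figure D5:**
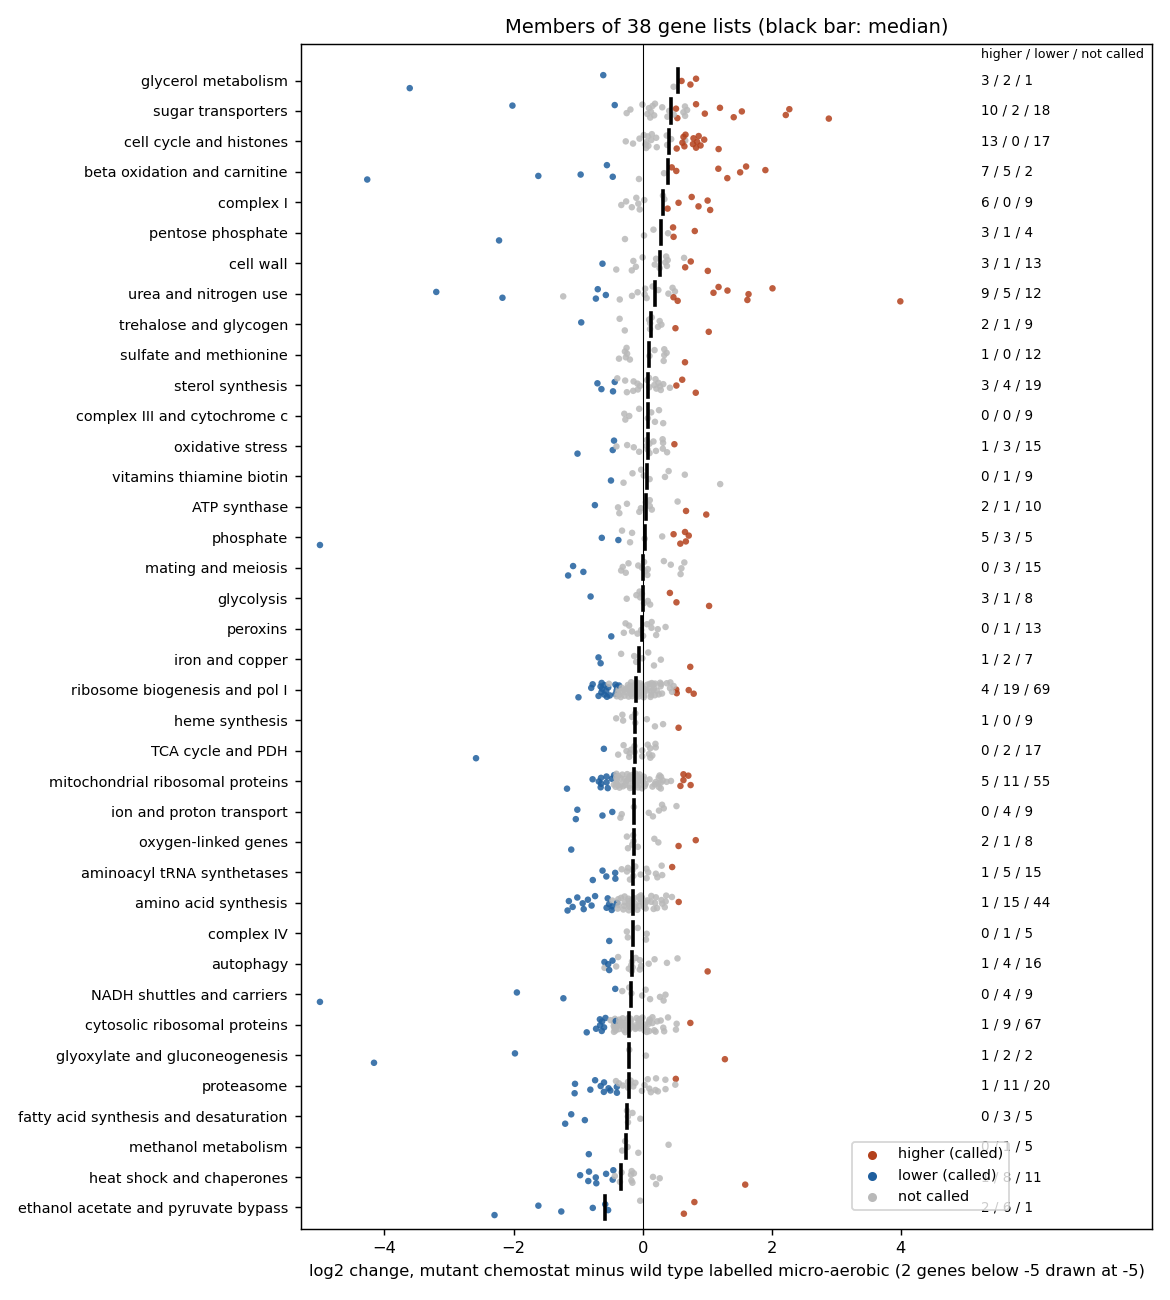
Change (log2, mutant chemostat minus wild type labelled micro-aerobic) of every tested member of 38 gene lists, ordered by median (black bar), with counts called higher, lower and not called at the right; PHO89 and NDE1 are drawn at the edge. Glycerol metabolism and sugar transporters have the highest medians and ethanol, acetate and pyruvate bypass the lowest.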

How the data were processed

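Polyadenylated RNA was sequenced with a stranded kit, per the labels' protocols. The values used are unnormalized counts, deposited by the authors as read pairs per gene from featureCounts with no strand setting, per the file headers, so reads of the 303 genes that overlap another cannot be assigned to one of them. Tools named in the submitters' processing notes are edgeR 3.28.1, featureCounts 1.6.0, SAMtools 1.3.1 and Bowtie 1.2.1.1. Coordinates are those of the deposited annotation, whose genome build is not given. The authors' deposited table of this contrast holds per gene an adjusted p-value, the raw p-value, a score of a likelihood ratio test, the mean log2 CPM and the log2 fold change. It names no groups, which were recognised from the changes themselves, and its model is not given. Another 4 columns of the count table belong to other libraries and were left out.

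A model with 1 mean per group was fitted to the 8 libraries in edgeR 4.0.16 (limma 3.58.1, R 4.3.3) after filterByExpr (5265 of 5428 genes) and TMM scaling (factors 0.859 to 1.12). The quasi-likelihood F test was two-sided with Benjamini-Hochberg adjustment at 0.05, with a common biological coefficient of variation of 0.118 and 4 residual degrees of freedom. The SE was taken as the size of the change divided by the root of F. Totals of 6190556 to 10087942 counts per library put a floor of 3 counts at 0.265 to 0.479 CPM. Intervals (95%, exact) and floors cover counting error only. On simulated data the fit recovered 95 of 100 genes changed 2-fold and 100 of 100 changed 4-fold among 5253 genes, and called 15 unchanged ones. The changed genes were drawn above a minimum level, were fewer than those called here, and had the spread estimated by the fit. Recovery there is thus no measure of power in these data. Alternatives were RLE and upper quartile scaling, no filter on low counts, DESeq2 1.42.0, edgeR's likelihood ratio test, the 4 libraries alone, leaving out each library, and leaving out overlapping genes.

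Symbols came from 845 homolog entries written from general knowledge or, failing those, from the annotation's gene names, 1219 genes in all. Where a gene had both (300), 277 were identical and 23 differed. The members, the 38 gene lists and the tests were chosen with earlier results of these data known. The genes named are those targeted, the 12 genes with a symbol that rose most, the 12 that fell most and the 6 of each without one (at least 10 CPM in a group, no overlap between groups), and up to 4 called members of each list. Others, such as beta-oxidation genes beyond those 4, neighbours of named genes, PHO87, FRE7, ITR2, NAG3, GIT1 and GCN4, were chosen after their values were seen. Lists are described by counts and medians beside those of all genes.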

Additional observations from a re-analysis of the deposited data

How the results depend on the processing

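The number of calls depended mainly on which library was left out, in which case the group of the lone library is assumed to vary like the others. With 1 library left out, the genes called numbered 280 to 2105, those higher 135 to 1107 and those lower 145 to 998, and by at least 2-fold 81 to 320 were higher and 85 to 184 lower. The other alternatives kept each of these counts within 1.5 times. They gave 1420 calls under RLE scaling, 1435 under upper quartile scaling (943 higher, 492 lower), 1439 of 5356 genes without a filter on low counts, 1501 with DESeq2, 1712 with the likelihood ratio test, 1182 with the 4 libraries alone and 1339 of 4982 without overlapping genes. For 213 named genes 2331 values were recomputed: 2071 kept direction and call, 260 kept direction and lost the call, and none reversed. Of these genes 111 were called under every alternative and 102 lost the call under at least 1. The root mean square log2 difference between replicates was 0.342 in the mutant chemostat, 0.245 in the wild type labelled micro-aerobic and 0.390 in the wild type labelled aerobic; the cause was not tested. Counting every gene with the sugar transporter domain, an alternative chosen after seeing the data, gave 11 rises and 4 falls in place of 10 and 2. No paired analysis was possible because the groups share no replicate numbers in the labels. A gene with fewer counts than the floor of 3 in a library cannot be told from 0 at this depth.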

Other observations

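Of the 246 genes called with at least a 2-fold change and 10 CPM in a group, 57 belonged to a gene list. Of the same 246, 139 had no symbol, 38 of these with no protein domain either. The shares of all genes in a list, or with no symbol and no domain, are not given here. Neither the 57 nor the 38 is thus read as high or low. Over all 5265 genes tested 1214 had a symbol. Symbols were written from general knowledge for part of the homologs only, so no trait of the genes is read from the number without one. Among the largest rises without a symbol, OPAR_001966, with an aminotransferase domain, stood at 75.1 and 50.5 CPM in the mutant chemostat and 4.47 and 8.78 CPM in the wild type labelled micro-aerobic. OPAR_001351, with a purine nucleoside permease domain, stood at 362 and 318 CPM in the mutant chemostat and 42.4 and 56.5 CPM in the wild type. OPAR_002623, with no domain, stood at 1149 and 1073 CPM in the mutant chemostat and 168 and 156 CPM in the wild type. OPAR_000366, with a glycoside hydrolase domain, stood at 34.3 and 25.4 CPM in the mutant chemostat and 5.26 and 4.47 CPM in the wild type. Absence of overlap between the groups was a condition for choosing these genes. Among the falls, OPAR_004579, with a major facilitator domain, stood at 59.8 and 52.7 CPM in the mutant chemostat and 429 and 406 CPM in the wild type, and OPAR_004652, with no domain, at 1.57 and 1.503 CPM in the mutant chemostat and 23.0 and 30.5 CPM in the wild type.

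RGI2, a gene of respiratory growth in Saccharomyces cerevisiae that overlaps another gene here, stood at 2670 and 3349 CPM in the mutant chemostat and 1269 and 1458 CPM in the wild type labelled micro-aerobic (1.14 ± 0.15), against a mean of 7.49 CPM in the mutant batch. EXG1, a cell wall glucanase gene, rose by 1.01 ± 0.14. SPO11 (-1.15 ± 0.18), of meiotic recombination, and STE6 (-1.08 ± 0.20), the mating factor exporter gene, fell. TSA1, a peroxiredoxin gene, stood at 282 and 217 CPM in the mutant chemostat and 490 and 515 CPM in the wild type (-1.01 ± 0.17), against means of 1504 CPM in the mutant batch and 1500 CPM in the wild type labelled aerobic. Of 71 mitochondrial ribosomal protein genes 5 rose and 11 fell, and of 92 genes of ribosome biogenesis and RNA polymerase I 4 rose and 19 fell. The shares called were 22.5% and 25%, below the 27.1% of all genes. Without wild-type library 2 each of these lists had 1 fall called, and without mutant chemostat library 2 each had 24 falls, with 10 rises among the mitochondrial ribosomal protein genes and 13 among those of ribosome biogenesis.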
